A study of Mus musculus with 36 samples.

Results

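The collagen genes of the mouse hippocampus were followed with age and between whole tissue and microglial ribosome pulldown. Members were the protein-coding genes whose symbol has the form of a collagen alpha chain (Col, a number, a, a number) and whose mean over the 36 libraries was at least 10 estimated counts. Of 43 collagen symbols, 39 met the minimum, out of 36172 genes in the deposited table. Just inside it were Col9a1 with a mean of 11.1 counts and Col17a1 with 17. The 4 left out were Col6a6 (8.74 counts), Col24a1 (7.15), Col28a1 (5.74) and Col10a1 (3.27).

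All animals were Cx3cr1-NuTRAP mice, in which the Cx3cr1 promoter, active in microglia and border macrophages, drives a tamoxifen-inducible Cre, and recombined cells carry GFP-tagged ribosomes. Input is RNA of the cleared hippocampal homogenate. TRAP is the polysome RNA taken from that homogenate with an antibody to GFP. The young group held 10 inputs of mice of 6 months induced early (5 female, 5 male). The old early-induced group held 12 inputs of mice of 22 months (7 female, 5 male), and the old late-induced group held 7 inputs of mice of 22 months (5 female, 2 male) with the TRAP library of each of those 7 animals. The labels number the animals but do not give the ages at induction. No group lacked Cre or tamoxifen, so neither was compared.

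Collagens are triple-helical proteins of the extracellular matrix. Type IV collagen forms the sheet of every basement membrane, including that of brain capillaries, while fibrillar collagens (types I, II, III, V, XI and others) form fibrils and FACIT collagens sit on fibril surfaces. Type VI makes beaded filaments, type VIII hexagonal networks, type VII anchoring fibrils, and multiplexins (XV and XVIII) lie in basement membrane zones. Transmembrane collagens span the cell membrane. In brain, collagen is found mainly around blood vessels, in the meninges and in the choroid plexus, and some chains are made by neurons. The 39 members comprised 10 fibrillar, 6 type IV, 5 type VI, 2 type VIII, 9 FACIT, 4 transmembrane and 2 multiplexin genes, and Col7a1.

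Library totals ran from 12.9 to 20.4 M counts (M, 1e+06). Values below are CPM (counts per 1e+06) on 1 TMM scale over all libraries, TMM being a scaling that lines libraries up on the bulk of their genes. All 12 microglial markers were higher in TRAP, where their sum ran from 11970 to 19010 CPM against 647 to 946 CPM in the inputs of the same animals. The sum of 10 hippocampal subfield markers ran from 805 to 1101 CPM in the inputs, so the labelled tissue carried its markers. Inputs fell into 2 sets by 9 markers of the choroid plexus, the secretory tissue of the brain ventricles next to the hippocampus, among them Ttr. Their sum was 53.5 to 203 CPM in 14 inputs and 1781 to 4229 CPM in 15 inputs, with none between. The high set held 6 of 10 young, 4 of 12 old early-induced and 5 of 7 old late-induced inputs. The S numbers in the sample titles ran from 1 to 23 for old early-induced, 25 to 38 for old late-induced and 39 to 57 for young animals. The labels do not say what these numbers record. If they follow an order of handling, that order and group cannot be told apart.

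Per kilobase of exon, the collagen genes spanned a wide range in the 29 inputs. Col9a3, a chain of the FACIT collagen IX, had the highest mean over all inputs, at 9.09 CPM per kb, but not among inputs with low choroid plexus markers. There it averaged 3.53, 3.43 and 3.92 CPM per kb in the young, old early-induced and old late-induced groups, against 9.37, 6.38 and 5.06 for Col4a2. Over all inputs it was followed by the type IV chains Col4a2 and Col4a1, with 7.00 and 5.41 CPM per kb, and by the type VI chain Col6a1 with 5.40. Next came Col25a1, a neuronal transmembrane collagen, with 4.99, Col8a2 with 3.63 and the fibrillar chain Col11a2 with 3.46 CPM per kb. At the low end stood Col4a3 with 0.134, Col9a1 with 0.138 and Col7a1 with 0.139 CPM per kb. Col9a3 overlaps Tcfl5 on the opposite strand by 229 bases, and Tcfl5 had a mean of 6.28 counts. The order was not the same in each group. In young inputs Col9a3 had 9.27 ± 5.32 CPM per kb (SD, n = 10), a spread that overlaps that of the genes ranked after it, against 5.75 ± 0.398 for Col25a1.

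**Figure D1:**
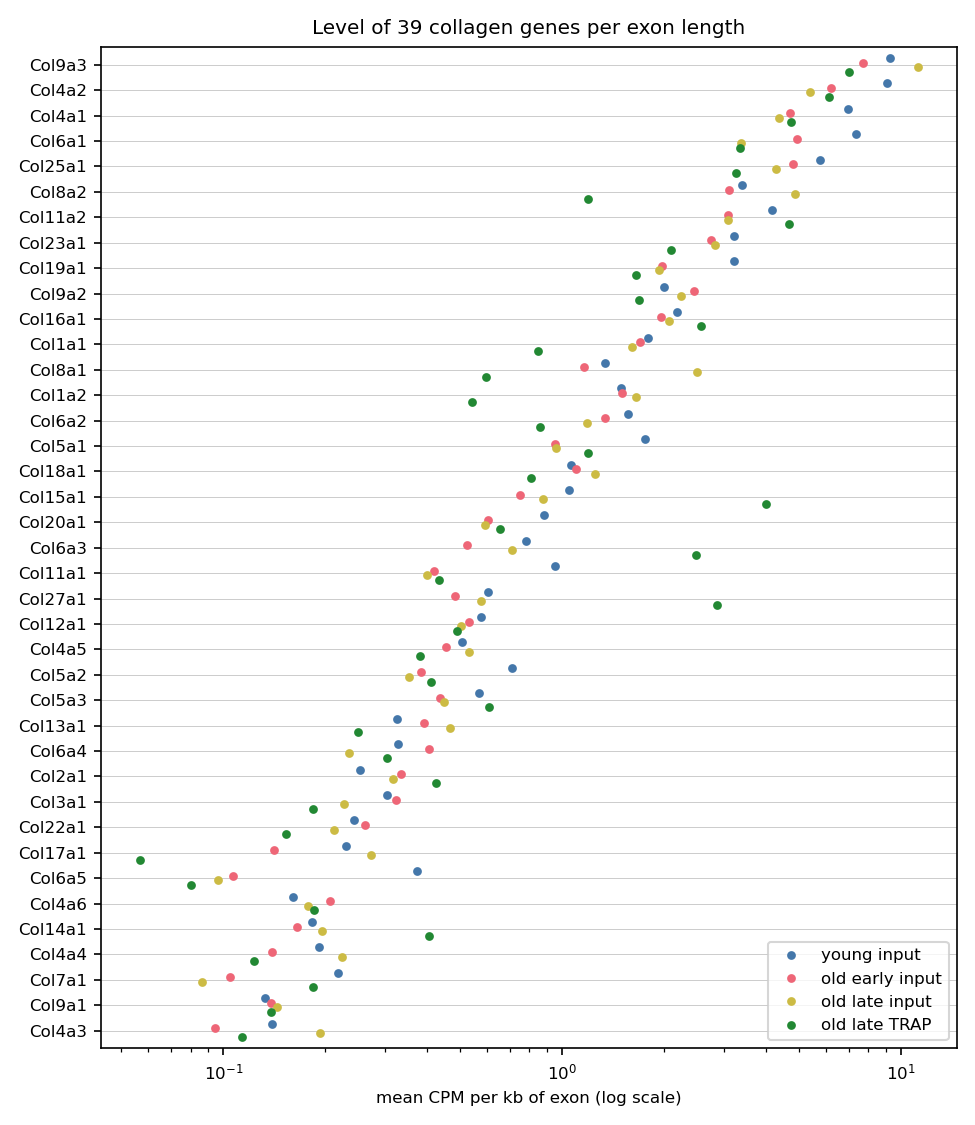
Mean level of each of the 39 collagen genes in CPM per kb of exon, on a log scale, with 1 point for each of the 3 input groups and for TRAP and genes ordered by their mean over the inputs. Col9a3, Col4a2, Col4a1, Col6a1 and Col25a1 lie at the top, and the TRAP points of Col15a1, Col6a3 and Col27a1 lie far to the right of their inputs.

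With age, collagen genes that changed were lower in nearly every case. In old early-induced against young inputs, 14 of 39 members (35.9%) were lower and 1 (2.56%) was higher, where 12.6% of all 14948 genes tested were lower and 13% higher (edgeR quasi-likelihood test, adjusted p under 0.05). In old late-induced against young inputs, 13 members (33.3%) were lower and 0 higher (0 also at an unadjusted p under 0.05), where 17.5% of all genes were lower and 17% higher. Each of the 39 passed the filter on low counts in this fit. The median log2 fold change of the members was -0.29 and -0.14, against 0.01 for all genes in each comparison. With a score of the choroid plexus markers as covariate it was -0.14 and -0.19, within inputs of low choroid level -0.28 and -0.30, and within those of high level 0.025 and -0.155, so the early-induced median turned sign there. With the fibroblast score it was -0.37 and -0.25. Both comparisons use the same young inputs, so they are not independent, and their values are given side by side. The 12 genes lower in both were Col4a1, Col4a2, Col5a1, Col5a2, Col6a1, Col6a5, Col7a1, Col11a1, Col11a2, Col19a1, Col20a1 and Col25a1. Summed over the 39 genes, collagen RNA came to 525 ± 66.4 CPM (SD, n = 10) in young, 407 ± 84.2 (n = 12) in old early-induced and 422 ± 75.6 (n = 7) in old late-induced inputs. In females only, with fewer inputs, 8 members were lower and 0 higher in early-induced mice, where 3.77% of all genes were lower and 4.29% higher, and 10 were lower and 0 higher in late-induced mice, where 9.36% and 9.39% were. The early-induced calls lost were those of Col6a1, Col7a1, Col15a1, Col20a1, Col25a1 and Col27a1, with log2 fold changes of -0.49, -0.996, -0.43, -0.55, -0.15 and -0.335 in females. Col25a1 thus came out over 1.5 times smaller than in both sexes and the other 5 did not. Col6a2, Col7a1 and Col20a1 lost their late-induced calls at -0.30, -1.11 and -0.57. Markers of other cells moved with age in the same inputs: all 12 microglial markers were higher in both comparisons, and of 8 oligodendrocyte markers 7 and 8 were higher. In bulk RNA, fewer cells of a type and less RNA per cell cannot be told apart.

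**Figure D2:**
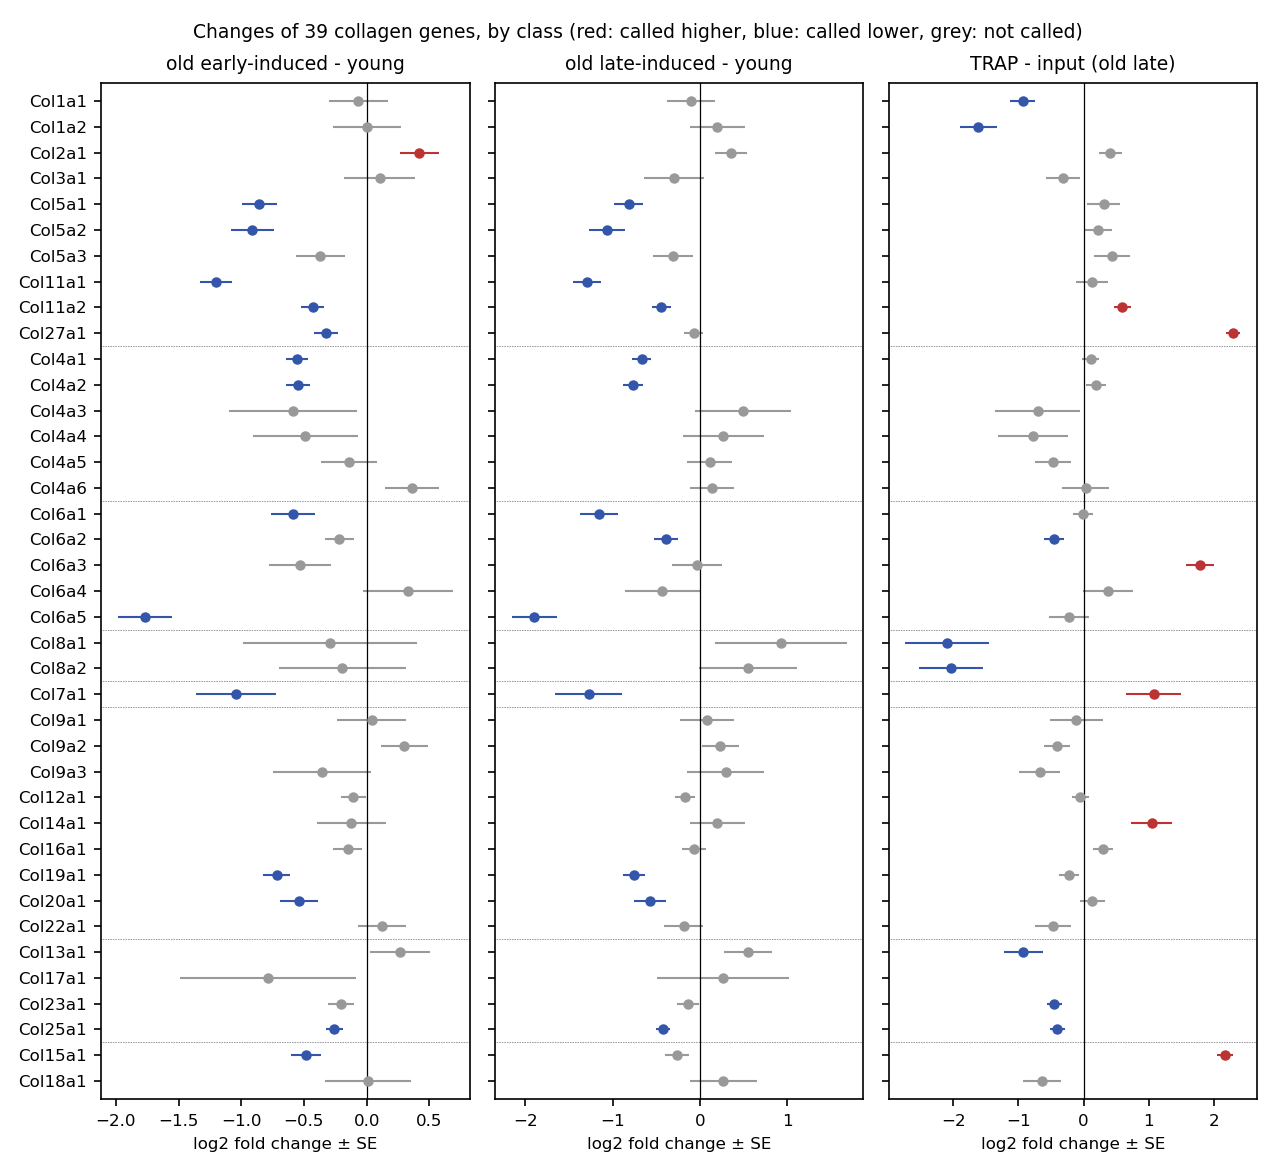
Log2 fold change ± SE of each collagen gene in the 2 age comparisons and in TRAP against input, by structural class (fibrillar, type IV, type VI, type VIII, Col7a1, FACIT, transmembrane, multiplexin from the top), in red where called higher, blue where called lower and grey where not called by edgeR. Called genes lie left of 0 in the age panels apart from Col2a1 in early-induced mice, while TRAP has 6 called to the right and 8 to the left.

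Among the type IV chains, the pair of the common vascular network fell. Col4a1 and Col4a2 form the heterotrimer that underlies capillary basement membranes, and they lie head to head on chromosome 8 (8:11198423-11312826 and 8:11312829-11449287 in the deposited coordinates), 2 bases apart. Col4a1 had 40.5 CPM in the lowest, 52.2 in the median and 56.9 in the highest young input. The same order of values was 19, 37.3 and 41.8 CPM in old early-induced and 27.3, 32.7 and 36.9 CPM in old late-induced inputs. Old late-induced inputs all lay below young ones, while the early-induced group met the young range at 1 young library. Its log2 fold change was -0.55 ± 0.089 (SE; edgeR adjusted p = 3.33e-05) in early-induced and -0.67 ± 0.106 (adjusted p = 1.76e-05) in late-induced mice.

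Col4a2 ran from 50.6 through a median of 61.2 to 68.6 CPM in young inputs. It ran from 22.8 through 41.6 to 56.8 CPM in old early-induced and from 28.4 through 37 to 43.2 CPM in old late-induced inputs, the latter again all below the young. The log2 fold change was -0.55 ± 0.097 (SE; edgeR adjusted p = 0.000102) and -0.76 ± 0.116 (adjusted p = 1.01e-05). The other 4 type IV genes (Col4a3 to Col4a6), chains of more restricted basement membranes, did not pass the test at either comparison. The type IV sum was 120 ± 10.2, 83.3 ± 14.6 and 77.4 ± 10.4 CPM in young, old early-induced and old late-induced inputs. Markers of endothelial and mural cells, which are known to make vascular basement membrane, were counted in the same inputs. In early-induced mice 2 of 10 endothelial markers were higher, and in late-induced mice 3. Of 8 mural cell markers tested 2 were higher in each, and no marker of either list was lower. Of all genes, 13% and 17% were higher and 12.6% and 17.5% lower. The part of these cells in the lower type IV values was not tested. The endothelial sum was 68.4 to 104 CPM in young, 66.2 to 138 CPM in old early-induced and 86.5 to 130 CPM in old late-induced inputs.

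Type VI collagen had the largest decrease, that of Col6a5, an alternative to Col6a3 as a chain of the type VI trimer (9:105856070-105960643, minus strand). Young inputs held 2.52 to 4.24 CPM of Col6a5, with a median of 3.80. Old early-induced inputs held 0.186 to 2.06 CPM, with a median of 0.894, and old late-induced inputs 0.618 to 1.85 CPM, with a median of 0.782. No old input reached the lowest young one. These values rest on few counts, with a mean of 26.4 over the 36 libraries. The log2 fold change of Col6a5 was -1.77 ± 0.215 (SE; edgeR adjusted p = 5.48e-07) in early-induced and -1.89 ± 0.261 (adjusted p = 2.7e-06) in late-induced mice.

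Col6a1, a core chain of the type VI trimer, fell with overlapping ranges. It went from 19.5 to 42.1 CPM (median 32.9) in young, from 8.20 to 34.7 (median 20.8) in old early-induced and from 8.46 to 19.6 (median 14.5) in old late-induced inputs. Its log2 fold change was -0.59 ± 0.174 (SE; edgeR adjusted p = 0.0131) and -1.16 ± 0.215 (adjusted p = 0.000123). The other core chain Col6a2 was lower in late-induced mice, at -0.39 (adjusted p = 0.027), and had -0.22 (adjusted p = 0.171) in early-induced mice. The call of Col6a2 was lost without old late-induced replicate 1 (-0.31, adjusted p = 0.0864), 2 (-0.37, 0.063) or 5 (-0.37, 0.0504) or young replicate 7 (-0.34, 0.0607), and in 3 other settings. Col6a3, the remaining core chain, and Col6a4 did not pass.

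Fibrillar collagens, the largest class, gave the most decreased genes by number, 5 of 10 in early-induced and 4 of 10 in late-induced mice. Of all genes 12.6% and 17.5% were lower. By share, type VI was lower in 40% and 60% of its 5 genes, against 50% and 40% for the fibrillar class. Col11a1, a chain found within type II collagen fibrils (3:114030540-114220326, plus strand), had 9.54, 12.3 and 14.4 CPM in the lowest, median and highest young input. The values were 3.50, 5.12 and 7.74 CPM in old early-induced and 3.35, 4.75 and 7.28 CPM in old late-induced inputs. Neither old group overlapped the young. The log2 fold change was -1.20 ± 0.130 (SE; edgeR adjusted p = 8.64e-08) and -1.29 ± 0.157 (adjusted p = 3.96e-07).

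Type V collagen, which nucleates fibrils in soft tissue, fell in its main chains. Col5a1 went from 9.06 to 18.2 CPM (median 15) in young, 5.13 to 10.9 (median 7.82) in old early-induced and 4.58 to 10.3 (median 8.95) in old late-induced inputs. Its log2 fold change was -0.85 ± 0.139 (SE; edgeR adjusted p = 3.71e-05) and -0.81 ± 0.165 (adjusted p = 0.000329). Col5a2 ran from 3.59 to 9.34 CPM (median 6.65) in young, 1.49 to 5.36 (median 4.03) in old early-induced and 2.13 to 4.81 (median 3.10) in old late-induced inputs, with log2 fold changes of -0.91 ± 0.175 (adjusted p = 0.000284) and -1.06 ± 0.209 (adjusted p = 0.000239). For both type V chains the old and young ranges overlapped. Col11a2, the partner of Col11a1, changed less, with 23.7 to 34 CPM (median 28.9) in young, 12.1 to 26.2 (median 22.1) and 17 to 25.8 (median 20.3) in the old groups, and log2 fold changes of -0.43 (adjusted p = 0.00087) and -0.44 (adjusted p = 0.00194).

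The chains of type I and III collagen, the most abundant fibrillar collagens of connective tissue, did not pass the test in either comparison. Col1a1 averaged 11.7 ± 3.36 CPM (SD, n = 10) in young, 11.2 ± 5.91 (n = 12) in old early-induced and 10.5 ± 2.92 (n = 7) in old late-induced inputs. The means of Col1a2 were 18.6 ± 5.86, 18.6 ± 11 and 20.6 ± 9.36 CPM. None of the 12 markers of meningeal and perivascular fibroblasts was called by edgeR either (5 in early-induced and 1 in late-induced mice had an unadjusted p under 0.05, all upward), and their sum covered 111 to 328, 113 to 554 and 137 to 435 CPM. Such an unadjusted p, in either direction, was found for 5629 and 6579 of all 14948 genes. Col27a1, a fibrillar chain of cartilage and other tissues, was lower in early-induced mice by the test (log2 fold change -0.33, adjusted p = 0.0134) and had -0.07 (adjusted p = 0.654) in late-induced mice. Col2a1, the cartilage collagen, was the only member called higher, at 0.42 ± 0.155 (SE; edgeR adjusted p = 0.0446) in early-induced mice, with 0.36 (adjusted p = 0.124) in late-induced mice. That call was lost in 24 alternative settings. Of these, 17 leave out 1 input: young replicate 1, 2, 3, 7, 8 or 9, old early-induced replicate 1, 2, 3, 4, 5, 6, 8 or 12, or old late-induced replicate 1, 3 or 7.

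Of the 9 FACIT genes, Col19a1 and Col20a1 were lower in both comparisons. Col19a1, which hippocampal interneurons are known to make and which has a part in synapse formation (1:24257683-24587437, minus strand), ranged from 18.8 to 25.9 CPM (median 22.4) in young inputs. It ranged from 6.84 to 17.7 CPM (median 14.1) in old early-induced and from 9.34 to 15.6 CPM (median 13.7) in old late-induced inputs, with no overlap of either with the young. The log2 fold change was -0.72 ± 0.107 (SE; edgeR adjusted p = 1.21e-05) and -0.76 ± 0.126 (adjusted p = 3.38e-05). Col20a1 had medians of 4.44, 2.98 and 2.84 CPM within 3.17 to 6.21, 1.49 to 4.34 and 2.01 to 4.57 CPM, and log2 fold changes of -0.54 (adjusted p = 0.00955) and -0.57 (adjusted p = 0.0141). The other 7 did not pass.

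Col7a1, the anchoring fibril collagen (9:108953745-108984875, plus strand), was a low gene with a large decrease. Its range was 1.25 to 3.36 CPM (median 2.17) in young, 0.28 to 3.17 (median 0.757) in old early-induced and 0.305 to 1.78 (median 0.573) in old late-induced inputs. Both old groups overlapped the young. The log2 fold change was -1.04 ± 0.318 (SE; edgeR adjusted p = 0.0151) and -1.27 ± 0.387 (adjusted p = 0.0109).

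Among transmembrane collagens, Col25a1, known in neurons and as a component of amyloid plaques, fell modestly. It had 64.8 to 80.2 CPM (median 76.4) in young, 51.1 to 71.7 (median 62.0) in old early-induced and 44.0 to 68.0 (median 54.2) in old late-induced inputs. The log2 fold change was -0.26 (edgeR adjusted p = 0.00543) and -0.43 (adjusted p = 0.000148). Markers of hippocampal subfield neurons moved the same way, with 5 and 7 of 10 lower. Of 8 general neuronal markers, 1 was higher and 0 lower in early-induced mice and 0 higher and 2 lower in late-induced mice, and their sum stayed within 6631 to 7292, 6304 to 7504 and 6448 to 7103 CPM in young, old early-induced and old late-induced inputs. Among them Gad1 and Gad2, genes of inhibitory neurons, had 0.01 and -0.10 in early-induced (not called) and -0.03 (not called) and -0.16 (called lower) in late-induced mice. The part of neuronal composition in the lower values of Col19a1 and Col25a1 was not tested. Of the multiplexins, Col15a1 was lower in early-induced mice, at -0.48 (adjusted p = 0.00344), and had -0.26 (adjusted p = 0.15) in late-induced mice. Col18a1, the source of the fragment endostatin, did not pass in either, and neither did the type VIII chains Col8a1 and Col8a2.

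**Figure D3:**
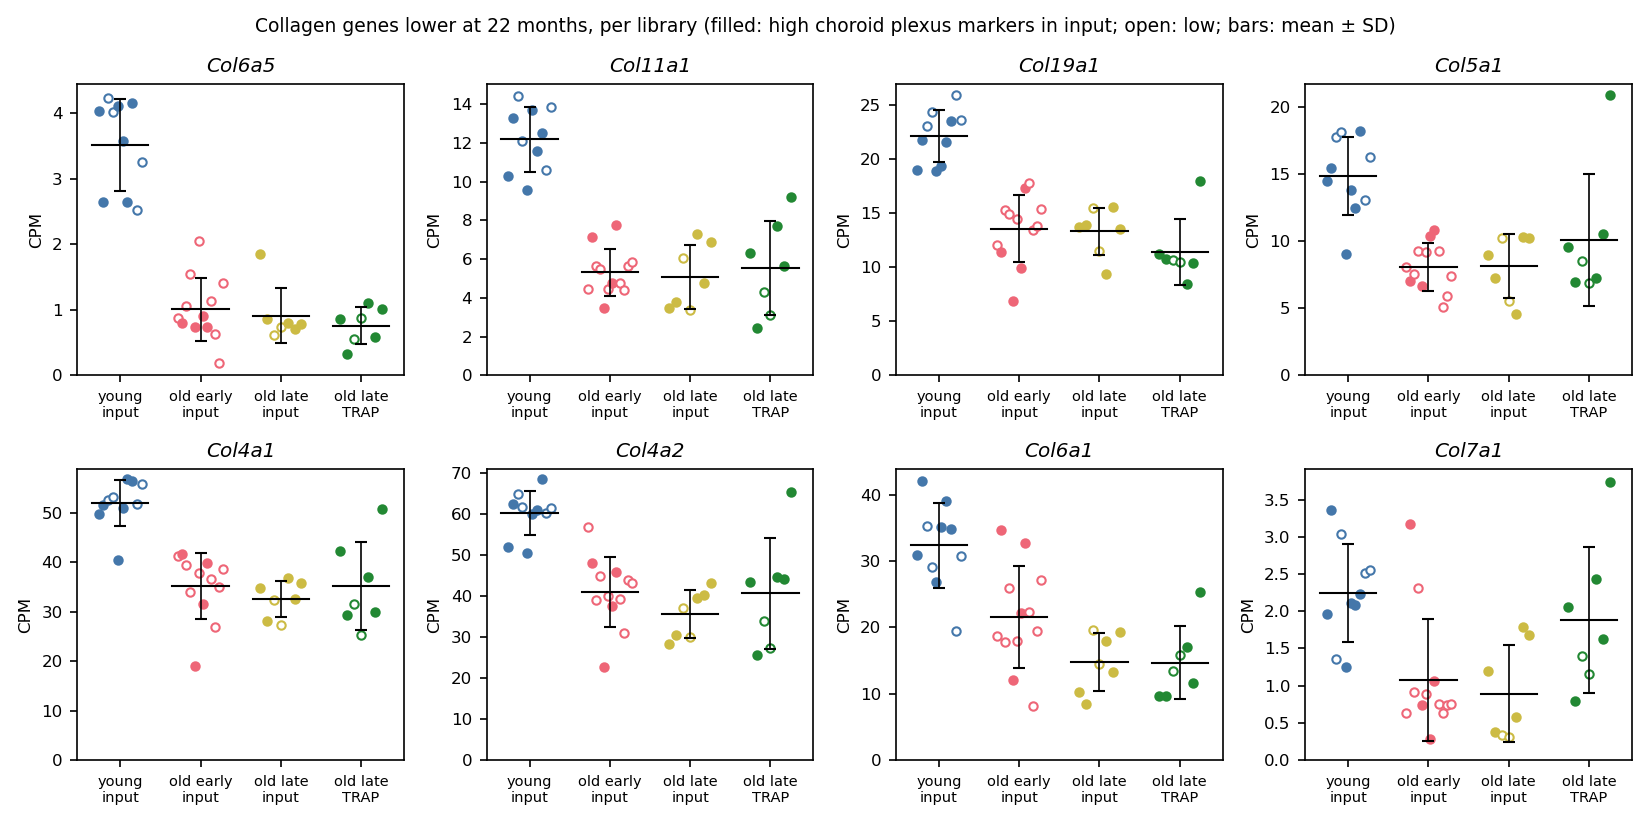
CPM of 8 collagen genes in each library by group, with the mean ± SD as bars, filled points where the input of the animal was high in choroid plexus markers and open points where it was low. For Col6a5, Col11a1 and Col19a1 every old input lies below every young input, and for Col7a1 the groups overlap.

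The RefSeq sequences upstream of 3 genes of this pattern are shown (GRCm38.p6, the assembly called mm10, 250 bases before the RefSeq start), since Col6a5 and Col11a1 had the largest decreases with separate ranges and Col7a1 had a large decrease with overlapping ones. Capitals mark the GC box GGGCGG and the CCAAT box CCAAT, on either strand, so that CCGCCC and ATTGG are their reverse complements. Col6a5 is at chr9:105960644-105960893 (minus strand), Col11a1 at chr3:114030290-114030539 (plus) and Col7a1 at chr9:108953336-108953585 (plus).
Col6a5: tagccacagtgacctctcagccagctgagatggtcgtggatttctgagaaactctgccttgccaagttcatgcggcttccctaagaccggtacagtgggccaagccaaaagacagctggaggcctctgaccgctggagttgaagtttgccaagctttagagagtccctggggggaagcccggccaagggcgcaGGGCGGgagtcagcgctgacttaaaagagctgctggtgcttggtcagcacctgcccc
Col11a1: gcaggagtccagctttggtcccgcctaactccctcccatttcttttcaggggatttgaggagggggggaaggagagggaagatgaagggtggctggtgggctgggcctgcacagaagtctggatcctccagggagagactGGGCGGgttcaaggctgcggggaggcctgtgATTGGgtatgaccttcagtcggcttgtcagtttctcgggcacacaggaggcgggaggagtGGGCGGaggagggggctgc
Col7a1: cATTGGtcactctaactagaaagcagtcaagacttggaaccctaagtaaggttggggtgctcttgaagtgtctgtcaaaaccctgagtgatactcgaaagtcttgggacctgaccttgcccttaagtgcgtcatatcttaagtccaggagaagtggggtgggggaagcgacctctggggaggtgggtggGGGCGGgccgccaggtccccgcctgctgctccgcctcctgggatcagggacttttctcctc
The Col6a5 window holds 1 GC box and no CCAAT box, the Col11a1 window 2 GC boxes and 1 CCAAT box, and the Col7a1 window 1 of each. A match to these letters is a description and not a shown binding site.

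Choroid plexus RNA moved with part of the collagen genes. In 7 genes (Col4a3, Col4a4, Col8a1, Col8a2, Col9a3, Col17a1 and Col18a1) every input of the high choroid set exceeded every input of the low set within each of the 3 input groups. The share of all genes that separate in this way was not counted, so the 7 are a description. The sets are small, down to 2 low and 5 high inputs in the old late-induced group. Col8a1, a chain of the hexagonal network of type VIII, averaged 0.750 CPM in the 4 low and 16.9 CPM in the 6 high young inputs. The old early-induced means were 1.58 CPM in 8 low and 24.1 CPM in 4 high inputs, and the old late-induced ones 1.41 CPM in 2 low and 26.9 CPM in 5 high inputs. Over whole groups Col8a1 ran from 0.530 to 23.4 CPM in young, 1.09 to 27.7 in old early-induced and 1.24 to 44.7 in old late-induced inputs. Col8a2 ran from 3.27 to 31.3, 3.17 to 39.1 and 3.54 to 42.7 CPM.

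Col9a3 averaged 13.6, 13.2 and 15.1 CPM in the low inputs of the young, old early-induced and old late-induced groups and 50.4, 62.7 and 54.6 CPM in the high ones. Its whole ranges were 11.1 to 63.8, 10.7 to 77.4 and 14.1 to 69.1 CPM. Col18a1 averaged 3.83, 4.00 and 2.92 CPM in low and 9.84, 15.1 and 11.1 CPM in high inputs, within 3.02 to 11.8, 2.36 to 16.2 and 2.80 to 14 CPM overall. Col17a1 was near absent from low inputs, with means of 0.104, 0.116 and 0.117 CPM, and had 2.24, 2.31 and 2.24 CPM in high inputs. The wide spread of these genes within a group thus runs along the choroid plexus level of the library. The summed fibroblast markers separated the same inputs, so the choroid and fibroblast levels cannot be told apart here. Fibroblast sums were 111 to 153 CPM in low and 238 to 328 CPM in high young inputs. They were 113 to 186 and 451 to 554 CPM in old early-induced and 137 to 140 and 292 to 435 CPM in old late-induced inputs. Col1a1, Col1a2 and Col3a1 separated by choroid set in 2 of 3 groups.

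**Figure D4:**
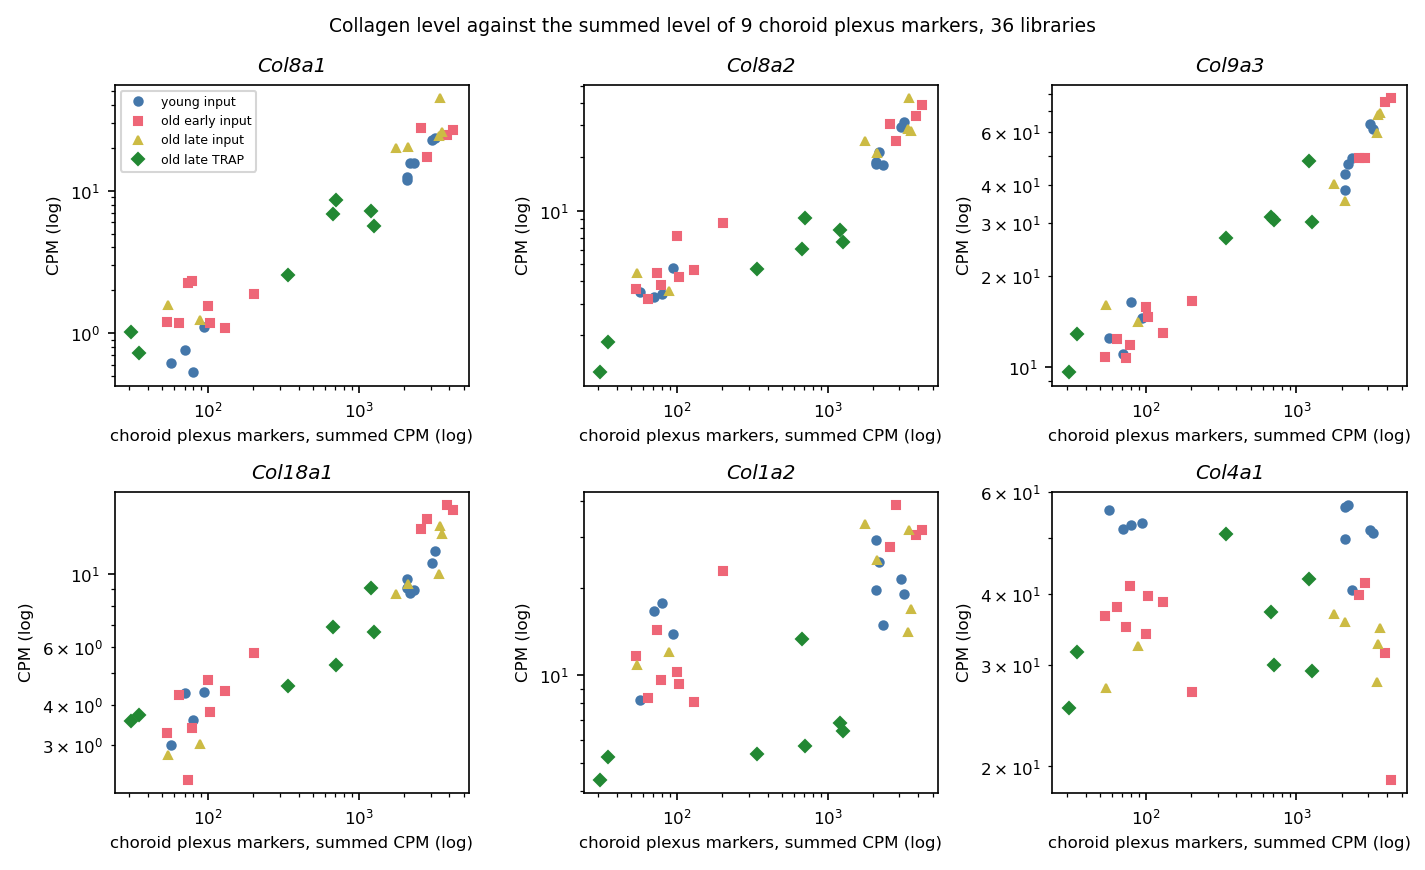
CPM of 6 collagen genes against the summed CPM of 9 choroid plexus markers in each of the 36 libraries, both axes on a log scale, with a symbol for each group. Inputs form a low and a high set with none between, the levels of Col8a1, Col8a2, Col9a3 and Col18a1 differ between the sets, and the young points of Col4a1 lie above most old input points in both.

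Each age comparison was fitted again inside the low and inside the high choroid set, a choice made after seeing the data. Col4a1, Col4a2, Col6a5, Col11a1 and Col19a1 were lower in all 4 of these fits (edgeR adjusted p under 0.05), and Col5a1 and Col5a2 in 3 of 4. Col7a1, Col11a2 and Col25a1 were lower in 2, Col6a1, Col6a2 and Col20a1 in 1, and Col15a1 and Col27a1 in neither fit of early-induced mice. Values moved by over 1.5 times for Col6a1 (-0.33 in the early-induced high set and -0.62 in the late-induced low set), Col15a1 (-0.30 in the early-induced low set), and, in the late-induced low set of 2 old inputs, Col25a1 (-0.21), Col20a1 (-0.94) and Col7a1 (-3.04). All 12 genes that were lower in both whole comparisons had a log2 fold change below 0 in each of the 4. In early-induced mice, 7 of 38 members tested were lower and 1 higher inside the low set, where 4.11% of all genes were lower and 4.04% higher. Inside the high set 9 were lower and 4 higher, where 7.57% and 6.18% of all genes were. The 4 higher genes were Col3a1, Col9a2, Col18a1 and Col1a1, at 0.78 (edgeR adjusted p = 0.0432), 0.77 (adjusted p = 0.0277), 0.58 (adjusted p = 0.0135) and 0.53 (adjusted p = 0.0447). In late-induced mice 8 were lower and 0 higher inside the low set, where 6.21% and 6.18% of all genes were, and 11 were lower and 1 higher inside the high set, where 9.01% and 8.59% were.

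Col8a1 was the higher gene of the low set in early-induced mice (1.13, edgeR adjusted p = 0.0488) and of the high set in late-induced mice (0.69, adjusted p = 0.0333). With the score of the choroid markers as a covariate, 14 members were lower and 3 higher in early-induced mice, where 14.9% and 15.9% of all genes were. In late-induced mice 13 were lower and 1 higher, where 17.5% and 17.7% were, and all 12 genes lower in both comparisons kept their calls. In that fit Col8a1, Col8a2 and Col18a1 were higher in early-induced mice (0.40, 0.29 and 0.27, edgeR adjusted p = 0.0215, 0.0288 and 0.0291) and Col8a1 in late-induced mice (0.57, adjusted p = 0.00117). None of the genes called higher in these fits was called in the whole comparisons, where Col8a1 and Col8a2 had -0.29 and -0.19 in early-induced and 0.93 and 0.55 in late-induced mice.

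A score of the fibroblast markers as covariate gave other calls. As these markers separate the same inputs as the choroid markers, the 2 scores are not independent. Within the high choroid set their sum was also higher in old early-induced (451 to 554 CPM) than in young inputs (238 to 328 CPM). In early-induced mice 22 members were lower and 1 (Col2a1) higher, where 13% of all genes were lower and 12.9% higher, and in late-induced mice 15 and 1 were, where 17.2% and 16.8% were. The 8 genes added to the early-induced decreases were Col1a1, Col1a2, Col4a3, Col6a2, Col8a1, Col8a2, Col9a3 and Col17a1. Among them Col8a1 had -1.63 (edgeR adjusted p = 0.0136) and Col8a2 -0.90 (adjusted p = 0.0392) with the fibroblast score, but 0.40 and 0.29 with the choroid score, and Col1a1 had -0.36 (adjusted p = 0.00226), but 0.53 inside the high choroid set. The direction of Col1a1, Col8a1 and Col8a2 in early-induced mice thus turns with the covariate or the set of inputs.

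The induction comparison set old late-induced against old early-induced inputs, and no member was called, where 0.0334% of all genes were called in either direction (edgeR). At an unadjusted p under 0.05 there were 3 of 39 members, Col6a1 with -0.57 (p = 0.00905 by edgeR), Col25a1 with -0.17 (p = 0.0364 by edgeR) and Col27a1 with 0.25 (p = 0.0257 by edgeR). Of all 14948 genes, 1736 had such a p, so the 3 members are a description. DESeq2 and limma-voom also called 0 here, between sexes and in the interaction. Between sexes, in the same fit, no member was called, where 0.174% of all genes were. An unadjusted p under 0.05 was found for 1 member (Col14a1) and for 1632 of all 14948 genes. In the interaction of age and sex over the 22 early-induced inputs, 0 members were called, where 0.0% of all genes were. There 6 members had an unadjusted p under 0.05 (Col4a3, Col9a3, Col13a1, Col18a1, Col19a1 and Col25a1), as did 2301 of all 14953 genes. Self-tests on simulated data recovered 89.8% of changes of log2 1 and 67% of log2 0.5 in the induction fit. In the interaction fit these shares were 71.7% and 45.9%. Recovery for the collagen genes alone was not tested.

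TRAP against input in the 7 old late-induced animals divided the collagen genes. Of 38 members tested (Col17a1 failed the count filter), 6 were higher in TRAP (15.8%) and 8 lower (21.1%), where 30.4% of all 14596 genes were higher and 28.8% lower (edgeR adjusted p under 0.05). This fit, used for the TRAP values below unless stated, held sex but not the animal, and so left out the pairing of the libraries. Of all genes called, 51.41% were higher on the TMM scale and 33.98% with upper quartile scaling, under which 5 members were higher and 12 lower. With the animal as a block, 7 were higher and 14 lower, where 31.9% and 32.1% of all genes were. The block added Col16a1 to the higher genes, at 0.29 (edgeR adjusted p = 0.0256), and Col4a3, Col4a4, Col4a5, Col9a2, Col9a3 and Col18a1 to the lower ones.

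The largest enrichments were those of Col27a1 (4:63215412-63334990, plus strand), Col15a1 (4:47208012-47313165, plus strand) and Col6a3 (1:90766860-90843971, minus strand). Col27a1 had 5.93, 7.46 and 10.2 CPM in the lowest, median and highest input and 30.5, 40.4 and 41.9 CPM in TRAP. Its log2 fold change was 2.30 ± 0.109 (SE; edgeR adjusted p = 1.04e-11), and it was higher in 7 of 7 animals. Col15a1, a multiplexin of basement membrane zones, had 4.01, 5.90 and 6.69 CPM in input and 20.9, 24.7 and 33.8 CPM in TRAP, with a log2 fold change of 2.17 ± 0.120 (adjusted p = 8.57e-11, 7 of 7 animals). Col6a3 had 4.33, 7.98 and 14.6 CPM in input and 20.2, 30.5 and 36.8 CPM in TRAP, with 1.79 ± 0.217 (adjusted p = 2.27e-06, 7 of 7). For these 3 genes no TRAP library overlapped an input.

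Smaller increases were seen for Col14a1, a FACIT, Col11a2 and Col7a1. Col14a1 went from 0.122 to 1.84 CPM (median 1.73) in input to 1.67 to 3.70 CPM (median 2.92) in TRAP, 1.04 ± 0.312 on the log2 scale (edgeR adjusted p = 0.00861, higher in 7 of 7 animals). Col11a2 had 21.9 to 40.8 CPM (median 34.3) in TRAP, and its log2 fold change was 0.59 ± 0.126 (adjusted p = 0.000666, 7 of 7). Col7a1 had 0.794 to 3.74 CPM (median 1.62) in TRAP and a log2 fold change of 1.08 ± 0.424 (adjusted p = 0.0379, 6 of 7), a call lost in 12 alternative settings, among them leaving out TRAP replicate 1, 5 or 7 or input replicate 2, 3, 4 or 5 (highest adjusted p = 0.105, without TRAP replicate 7). Ranges of TRAP and input met for all 3. Col7a1, Col11a2, Col15a1 and Col27a1 were thus higher in TRAP and lower in at least 1 age comparison of inputs. The type IV pair did not pass, with 25.3 to 50.7 CPM (median 31.6) of Col4a1 and 25.6 to 65.4 CPM (median 43.3) of Col4a2 in TRAP. Nor did Col5a1, Col6a1, Col19a1, Col6a5 and Col11a1, whose TRAP libraries held 6.91 to 20.9, 9.60 to 25.3, 8.40 to 17.9, 0.317 to 1.10 and 2.46 to 9.19 CPM.

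Genes lower in TRAP were led by the type VIII and type I chains. Col8a1 had 0.729 to 8.58 CPM (median 5.64) in TRAP against a median of 20.2 CPM in input, a difference of -2.10 ± 0.640 on the log2 scale (SE; edgeR adjusted p = 0.00976). Col8a2 had 1.24 to 9.11 CPM (median 6.12) against a median of 24.5, with -2.04 ± 0.488 (adjusted p = 0.00182). Both were lower in 7 of 7 animals, although the group ranges overlap. The call of Col8a1 was lost with limma-voom (-1.79, adjusted p = 0.0724) and in females only (-2.15, edgeR adjusted p = 0.0517). Col1a2 ran from 4.36 to 13.3 CPM (median 5.68) in TRAP and from 10.8 to 33.2 CPM (median 17) in input, with -1.61 ± 0.285 (adjusted p = 0.000125). Col1a1 ran from 4.00 to 7.38 CPM (median 6.01) in TRAP and from 6.76 to 14.7 CPM (median 10.4) in input, with -0.93 ± 0.191 (adjusted p = 0.000509). Both type I chains were lower in 7 of 7 animals. The remaining decreases were those of Col13a1 (-0.92, adjusted p = 0.0146), Col6a2 (-0.45, adjusted p = 0.0186), Col23a1 (-0.45, adjusted p = 0.00357) and Col25a1 (-0.40, adjusted p = 0.0063). Col13a1 held 1.07 to 3.67 CPM (median 2.15) in input and 0.789 to 1.88 CPM (median 0.909) in TRAP, and Col25a1 33.6 to 50.5 CPM (median 42.4) in TRAP.

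Markers of other cells moved too. Of 12 fibroblast markers 11 were lower in TRAP (sum 67.1 to 202 CPM), and of 9 choroid plexus markers 6 were lower, with sums of 30.8 to 34.8 CPM in the TRAP libraries of the 2 animals with low and 339 to 1262 CPM in those of the 5 with high choroid inputs. Of 10 endothelial markers 9 were higher in TRAP (193 to 318 CPM against 86.5 to 130 CPM in input), and so were 7 of 7 border macrophage markers. The part of these cells in the collagen differences was not tested. Fitted within the 5 animals of high and within the 2 animals of low choroid input, Col27a1, Col15a1, Col6a3 and Col11a2 were higher and Col1a1, Col1a2, Col8a2 and Col23a1 lower in both. There were 5 higher and 9 lower members in the high animals, where 25.8% and 22.6% of all genes were, and 5 and 5 in the low animals, where 23.4% and 14.2% were. Calls lost within 1 of these fits were Col8a1 (-0.70, edgeR adjusted p = 0.268), Col13a1 (-0.29, adjusted p = 0.688) and Col14a1 (1.23, adjusted p = 0.221) in the low animals and Col7a1 (0.92, adjusted p = 0.0791) and Col25a1 (-0.30, adjusted p = 0.0835) in the high animals, and Col6a2 lost its call in both (-0.50, adjusted p = 0.102, and -0.43, adjusted p = 0.0747).

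**Figure D5:**
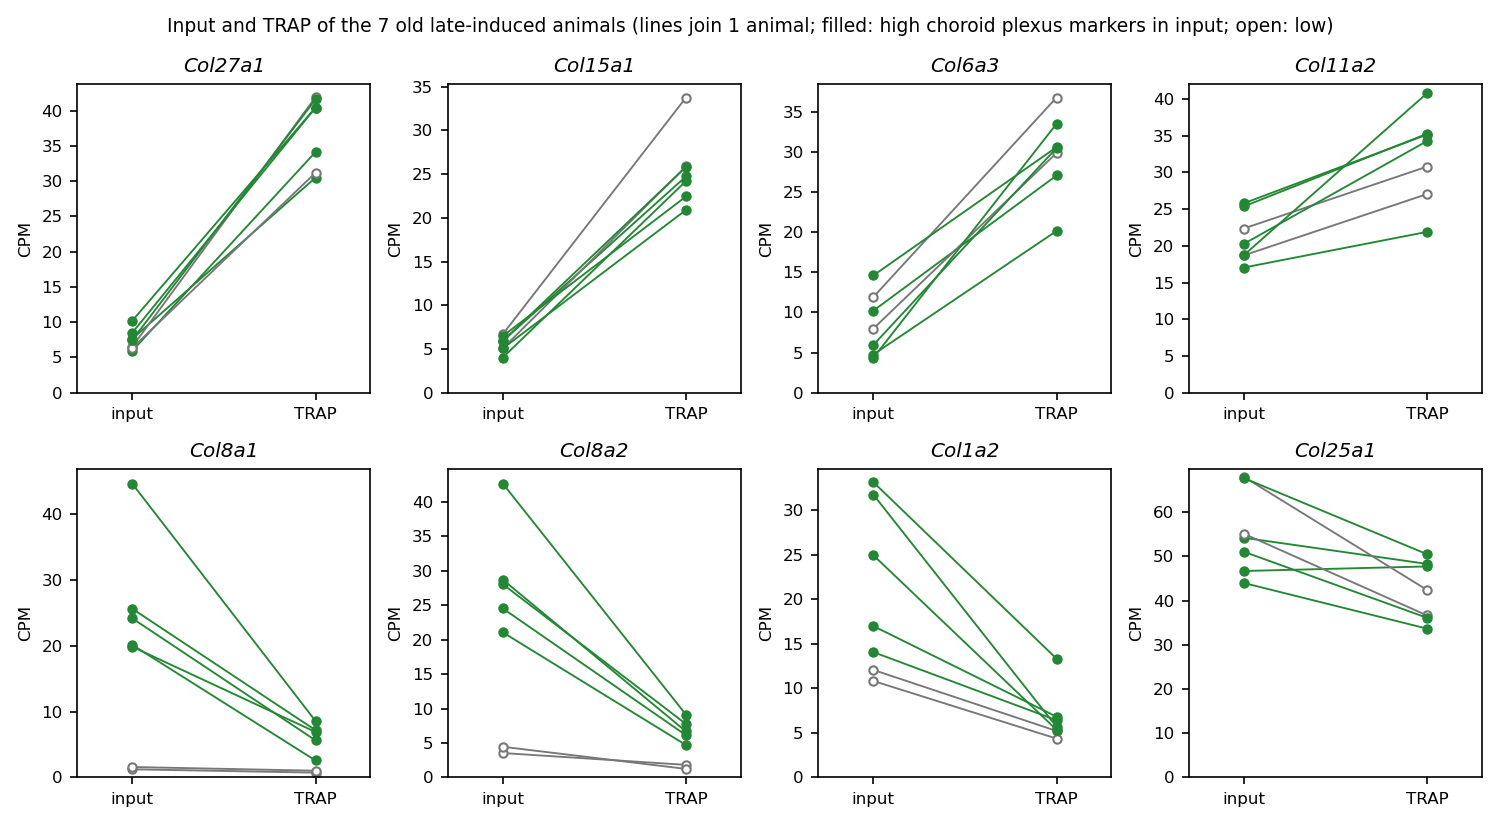
CPM of 8 collagen genes in the input and the TRAP library of the 7 old late-induced animals, with a line for each animal and open points for the 2 animals with low choroid plexus markers in input. Lines of Col27a1, Col15a1 and Col6a3 rise without overlap of the fractions, all lines of Col8a1, Col8a2 and Col1a2 fall, and those of Col8a1 and Col8a2 start low in the 2 animals with open points.

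Upstream sequences are shown for the 3 most TRAP-enriched genes and for Col8a1, the most depleted (RefSeq, GRCm38.p6, 250 bases, capitals as above). Col27a1 is at chr4:63215162-63215411 (plus strand), Col15a1 at chr4:47207762-47208011 (plus), Col6a3 at chr1:90843972-90844221 (minus) and Col8a1 at chr16:57754738-57754987 (minus).
Col27a1: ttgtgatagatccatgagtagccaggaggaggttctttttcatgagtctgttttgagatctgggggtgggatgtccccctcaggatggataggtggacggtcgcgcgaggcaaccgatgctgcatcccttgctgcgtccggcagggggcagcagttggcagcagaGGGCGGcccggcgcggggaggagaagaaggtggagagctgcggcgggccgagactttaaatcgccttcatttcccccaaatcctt
Col15a1: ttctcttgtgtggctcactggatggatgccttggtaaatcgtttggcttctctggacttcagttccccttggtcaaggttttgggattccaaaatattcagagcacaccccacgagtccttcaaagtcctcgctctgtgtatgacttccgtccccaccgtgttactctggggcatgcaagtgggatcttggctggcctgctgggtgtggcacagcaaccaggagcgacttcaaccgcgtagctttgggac
Col6a3: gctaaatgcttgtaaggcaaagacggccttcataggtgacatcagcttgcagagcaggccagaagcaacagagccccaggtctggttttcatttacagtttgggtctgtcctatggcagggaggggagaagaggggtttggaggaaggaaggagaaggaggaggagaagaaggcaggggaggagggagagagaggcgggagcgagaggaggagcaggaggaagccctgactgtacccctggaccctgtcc
Col8a1: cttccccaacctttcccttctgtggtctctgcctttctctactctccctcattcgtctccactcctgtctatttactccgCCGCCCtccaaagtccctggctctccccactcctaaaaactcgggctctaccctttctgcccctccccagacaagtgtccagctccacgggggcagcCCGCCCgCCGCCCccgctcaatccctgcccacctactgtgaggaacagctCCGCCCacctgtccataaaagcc
Col8a1 holds 4 GC boxes, Col27a1 holds 1, and the windows of Col15a1 and Col6a3 hold neither motif. Of the 39 members, 31 had an upstream window in RefSeq. A GC box was in 20 of the 31 (64.5%), against 32.7% of all 32851 windows and 42.6% of the protein-coding ones. The CCAAT box was in 12 (38.7%, against 33.8% of all) and TATAAA, the TATA box, in 4 (12.9%, against 12.4%). The AP-1 site TGANTCA was in 1 (3.2%, against 6.7%). The core of the site of PU.1, a factor of myeloid cells, GAGGAAGT, was in 0 (0.0%, against 2.4%), which says only that these letters are not in these windows. Both strands were searched. The median GC content was 60.4% in the members' windows and 52.4% in all windows.

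Genes that act on collagen were counted from lists of partners, with examples by size. Of all genes tested, 13% were higher and 12.6% lower in early-induced mice, and 17% and 17.5% in late-induced mice. In TRAP 30.4% were higher and 28.8% lower. These shares stand beside every count of partners here and in the next paragraphs, and some counts lie near them. No set test was run on the lists. Of 16 genes of chain modification and folding, 1 was higher and 3 lower in early-induced mice, and 2 higher and 3 lower in late-induced mice. Plod2, a lysyl hydroxylase that sets the crosslink type, had -0.48 (edgeR adjusted p = 0.00171) and -0.52 (adjusted p = 0.0024), while P3h4 was higher (0.32 and 0.30). The other decreases were P3h3 (-0.45 and -0.51) in both, P3h1 (-0.28) in early-induced and P4ha2 (-0.27) in late-induced mice, and Fkbp10, a chaperone, was higher (0.29) in late-induced mice. In TRAP 8 of the 16 were higher and 7 lower. The prolyl 3-hydroxylase P3h2 (2.55) and the lysyl hydroxylases Plod3 and Plod1 (1.78 and 1.73) led the increases. Serpinh1, the collagen chaperone HSP47, fell by 0.76 on the log2 scale, P3h4 by 0.61 and P4ha3 by 0.58.

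Of 14 genes of propeptide removal and crosslinking, 1 was higher and 4 lower in early-induced mice, and 1 higher and 3 lower in late-induced mice. Bmp1, the main protease that removes the C-propeptide of fibrillar collagens, averaged 75.1 ± 6.85 CPM (SD, n = 10) in young, 44.5 ± 9.86 (n = 12) in old early-induced and 37.8 ± 4.85 (n = 7) in old late-induced inputs. Its log2 fold change was -0.75 (edgeR adjusted p = 2.2e-06) and -0.99 (adjusted p = 3.16e-07). Adamts14, which removes N-propeptides, had -0.58 and -0.94, Loxl2 -0.30 in early-induced and Adamts3 -0.29 in late-induced mice. The collagen-binding glycoprotein gene Sparc was higher (0.32 and 0.31). In TRAP, 2 of 13 tested were higher, Lox (2.97), a crosslinking oxidase, and Sparc (2.33), and 6 were lower, led by Pcolce (-1.87), Pcolce2 (-1.61) and Loxl2 (-1.49).

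Among 9 collagen receptors tested, Lair1, an inhibitory receptor of leukocytes, was higher with age (0.56 and 0.53) and by 4.03 in TRAP (edgeR adjusted p = 1.15e-12). Counts were 2 higher and 1 lower in early-induced mice, 3 and 2 in late-induced mice, and 4 and 2 in TRAP. Ddr1 was higher in both age comparisons (0.17 and 0.24), Itgb1 in late-induced mice (0.20), and Itga10 was lower in both (-0.90 and -0.60), as was Itga11 in late-induced mice (-0.46). In TRAP, Mrc2, a collagen uptake receptor, had 2.20 and Adgrg1, a receptor of collagen III, 2.04, while Ddr2 and Ddr1 had -0.65 and -0.58. None of 11 degradation genes was called with age by edgeR, while 0 in early-induced and 4 in late-induced mice had an unadjusted p under 0.05. Of all 14948 genes, 5629 and 6579 had such a p. In TRAP 3 of 10 were higher, Mmp2 (1.94), Timp2 (0.89) and Mmp14 (0.82), and 6 were lower, led by Fap (-1.41), Ctsk (-0.85) and Timp3 (-0.66). Of 12 non-collagen basement membrane genes, Agrn, Lamb1 and Lamc1 were lower with age in both comparisons (-0.36, -0.25 and -0.24 in early-induced, -0.48, -0.22 and -0.27 in late-induced mice), and Lamb2 was higher in late-induced mice (0.32). In TRAP 6 of the 12 were lower, led by Lama2 (-0.87), Nid1 (-0.76) and Lamb1 (-0.69), and 0 were higher (edgeR; 0 also at an unadjusted p under 0.05).

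Chains that assemble into 1 trimer, or neighbour each other in the genome, were compared across libraries of a group. Several pairs did not pass. In young, old early-induced and old late-induced inputs, Col6a1 had r = 0.453, 0.371 and 0.479 with Col6a2. With Col6a3 it had 0.537, 0.337 and 0.321. None of these had a permutation adjusted p under 0.05, nor did Col4a5 with Col4a6 or Col3a1 with Col5a2. Col9a2 and Col9a3 passed only in old early-induced inputs (r = 0.87), with 0.146 in the 8 low choroid ones. Over 10 young inputs, Col1a1 and Col1a2 correlated with r = 0.884 (Spearman's rho = 0.818, permutation adjusted p = 0.0034 and 0.0225 over 27 tests), and r was 0.706 without the 2 libraries farthest from the median. Col4a1 and Col4a2 had r = 0.796 in young (rho = 0.661, permutation adjusted p = 0.0065 and 0.0893), and 0.733 without the 2 farthest libraries. In old early-induced inputs r was 0.917 (rho = 0.776, permutation adjusted p = 0.00144 and 0.0225), and it fell to 0.571 without the 2 farthest. Over the 7 old late-induced inputs r was 0.59 (exact permutation adjusted p = 0.288), and 0.088 without them. The whole-group tests also took in pairs whose libraries split by choroid level. Among those that passed, these were Col1a1 with Col1a2 in both old groups and Col9a2 with Col9a3 in old early-induced inputs. Col4a3 with Col4a4 and Col8a1 with Col8a2 passed and split in every input group. All pairs were therefore compared again inside choroid sets of 6 or more libraries. Col1a1 and Col1a2 had r = 0.897 in the 6 high young and 0.952 in the 8 low old early-induced inputs (exact permutation adjusted p = 0.0375 and 0.0259 over 18 tests). Those 2 sets gave 0.817 and 0.736 for Col4a1 and Col4a2 (adjusted p = 0.119 and 0.232), where the second was -0.669 without the 2 farthest libraries and so rested on them. Col8a1 and Col8a2 had 0.937 and 0.285, and Col4a3 and Col4a4 0.666 and 0.35, none of these with an adjusted p under 0.05.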

How the data were processed

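Hippocampal RNA of 29 inputs and 7 TRAP pulldowns was analysed from 1 table that the authors deposited, with estimated counts per gene marked raw per the file headers; 77.4% of nonzero values were not whole. The submitters' processing notes name DESeq2 and mm10 without a role; aligner, counting tool, strand handling and annotation are not given in the sources used here. Overlapping genes are therefore uncertain. Counts were rounded and tested with edgeR 4.0.16 in R 4.3.3 (filterByExpr with a minimum count of 10, TMM, glmQLFit, glmQLFTest; Benjamini-Hochberg adjusted p under 0.05). Age and induction contrasts and sex came from 1 fit of group and sex over the 29 inputs. TRAP was fitted on 14 libraries with sex but without the animal, which was a block in an alternative only. The animal numbers in the labels pair TRAP with input: after subtraction of the group mean, TRAP and input of 1 animal correlated across genes at 0.292 to 0.439 in the 7 pairs, against a median of -0.0854 between animals. Permutation tests used scipy 1.17.1. Lengths are the union of exons in GENCODE M21 and upstream windows are from RefSeq.

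Alternatives were other scalings and filters, DESeq2 1.42.0, limma-voom (limma 3.58.1), other designs, marker scores as covariates and leaving out each library. Members, lists and tests were chosen with earlier results of these data known. Values by library are given for members called with an absolute log2 fold change of 0.5 or more, for Col6a5 and for the highest member of each class; partners are the 3 largest called changes each way. Where the labels do not say how samples were handled, p-values measure the spread between these animals. On simulated data the early-induced age fit of 14838 genes recovered 92.9% of changes of log2 1 and 72% of log2 0.5, and the TRAP fit of 14348 genes recovered 90.8% and 55.8%.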

Additional observations from a re-analysis of the deposited data

Results flagged for a closer look

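In 7 of 117 gene and group combinations, 1 library had a value whose gap to its nearest neighbour exceeded Dixon's critical value. That value is a share of the range, 0.568 for 7 libraries and 0.466 for 10. Chance gives about 5%, or 5.9. The combinations cover young inputs, old late-induced inputs and TRAP. The 12 old early-induced inputs were not screened, so outlying values there are not listed, such as 24.06 CPM of Col16a1 in replicate 2 (next 14.3). In TRAP, Col1a2 had 13.34 CPM in replicate 5, against 6.82 in the next library and a median of 5.68. TRAP replicate 7 was high for Col5a1 (20.90 CPM, next 10.55, median 8.56) and for Col19a1 (17.92 CPM, next 11.23, median 10.63). Among young inputs, Col4a1 was low in replicate 5 (40.53 CPM, next 49.78, median 52.22) and Col13a1 in replicate 4 (0.7912 CPM, next 1.237, median 1.543). Among old late-induced inputs, Col6a5 was high in replicate 1 (1.85 CPM, next 0.864, median 0.782), still below every young input, and Col14a1 was low in replicate 4 (0.1218 CPM, next 1.09, median 1.73).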

How the results depend on the processing

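No gene called in a whole comparison changed sign under the alternatives run, while uncalled genes did: in early-induced mice Col8a1 went from -0.29 to 0.40 with the choroid score. The early-induced member median went from -0.29 to 0.025 within high choroid inputs. In early-induced mice the 1 higher call became 0 with no filter beyond 1 count, with only the 2 groups compared, in females only and at an adjusted p under 0.01. It became 3 with the choroid score and 4 within high choroid inputs, and ranged from 0 to 1 when 1 library was left out. The 14 lower calls became 8 in females only, 22 with a fibroblast score, 7 within low and 9 within high choroid inputs. In late-induced mice the 0 higher calls became 1 with the fibroblast score, with the choroid score, within high choroid inputs and without young replicate 10 (range 0 to 1), and the 13 lower calls became 8 within low choroid inputs. In TRAP the 8 lower calls became 14 with the animal as replicate block and 5 within animals of low choroid input, and leaving out a library gave 5 to 8 higher and 8 to 12 lower. Upper quartile scaling moved the median of all genes in TRAP to -0.165, and the share of calls that were higher to 33.98% from 51.41%; collagen calls were then 5 higher and 12 lower. Of 27 correlations over whole groups 12 passed, most of them in pairs whose libraries split by choroid level. Within libraries of like choroid level, which hold fewer libraries, 2 of 18 passed. Choroid settings were chosen after seeing the data; the cause of other shifts was not tested. Col7a1 and Col2a1 are genes of few counts, with means of 24.3 and 48.0 over the 36 libraries. They are not the only ones, as Col6a5 had a mean of 26.4, Col13a1 26.2 and Col14a1 24.8 counts.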
